A study of Homo sapiens with 8 samples.

Results

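Keratin genes were followed in SAS cells, a cell line established from a human squamous carcinoma of the tongue, after transfection of each of 3 miRNA mimics or of a negative control. The members are the gene probes of the array whose gene name is KRT followed by digits and at most 1 letter, so keratin-associated proteins (KRTAP) and pseudogenes named with P and a digit are left out. The rule found 67 of 58201 gene probes, which carry 56 of 43317 gene names. One of the names is KRT42P, a keratin pseudogene that the rule takes in because its name ends in P with no digit after it. The 4 groups of 2 arrays received NC, the control RNA, or a mimic of miR-874-3p, miR-629-3p or miR-210-3p, all at 25 nM. By the sample labels the cells grew in medium with puromycin and RNA was taken 48 h after transfection, whereas the methods give a shorter interval, another extraction kit and the name SAS/GFP, for SAS cells that carry a GFP vector. Each group is a transient transfection of 1 cell line, and the labels do not say that the 2 samples of a group came from separate cultures, so the p-values may measure only technical spread.

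Keratins are the intermediate filament proteins of epithelial cells. A type I keratin pairs with a type II keratin, and the pair that a cell uses changes with its state: KRT8 and KRT18 in simple epithelia, KRT5 and KRT14 in the basal layer of stratified epithelia, KRT6, KRT16 and KRT17 in wounds and hyperproliferation, and further pairs in differentiating, hair and nail cells. Squamous carcinomas commonly carry basal, wound and simple keratins together. The type I genes other than KRT18 lie in a cluster on chromosome 17, and the type II genes lie with KRT18 in a cluster on chromosome 12, where close relatives have similar sequences.

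The mature sequences of the 3 miRNAs that the mimics are named for are shown because they are the agents compared, as RefSeq holds them with GRCh38.p14, 5′ to 3′ and with the seed (bases 2 to 8) in capitals.
miR-629-3p: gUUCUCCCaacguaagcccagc
miR-210-3p: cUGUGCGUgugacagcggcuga
miR-874-3p: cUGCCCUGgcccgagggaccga
Each is 22 bases long and no 2 of them share a seed. The 7-base match to the seed on the transcript strand stood in 0 of the 67 keratin probes for each miRNA. Over all gene probes, 0.747% held GGGAGAA, the match for miR-629-3p, 0.131% held ACGCACA, the match for miR-210-3p, and 0.387% held CAGGGCA, the match for miR-874-3p. A probe covers 60 bases of a transcript at most, so the count says nothing of the rest of the keratin transcripts.

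All 8 arrays lay on 1 slide and were scanned at 1 time. Row 1 of the slide held the arrays of miR-210-3p and miR-629-3p, and row 2 those of NC and miR-874-3p, so in the comparisons of miR-629-3p or miR-210-3p with NC the slide row and the mimic cannot be told apart, while miR-874-3p against NC and miR-629-3p against miR-210-3p lay within a row. Between 24338 and 28994 probes per array were well above background, the fewest on the NC arrays. The 22302 probes without signal above background anywhere had a median difference from NC (log2) of -0.15 for miR-874-3p, -0.55 for miR-210-3p and -0.75 for miR-629-3p. All 12 epithelial and squamous marker genes, KRT5 and KRT14 among them, were well above background on all 8 arrays, and 5 of the 7 fibroblast markers (COL1A2, COL3A1, DCN, LUM and PDGFRA) were above it on none, while PDGFRB was above it on all 8 and COL1A1 on 6.

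The SAS cells gave signal for the basal and most simple keratins and for part of the wound, suprabasal, and hair and nail keratins. Few keratins of the hair follicle sheath gave signal. Levels are given as log2 of the signal over each array's 75th percentile of gene probes, so that 0 is that percentile, and they can be compared between arrays for 1 probe but not between probes. Of the 56 names, 27 had a probe with a value on all 8 arrays that both arrays of some group placed well above background, the condition for a test, and 21 had no probe above background on any array. The 27 comprise 5 of 6 simple, 3 of 3 basal, 3 of 5 wound and hyperproliferation, 7 of 14 suprabasal and differentiation, 1 of 9 hair follicle sheath and 7 of 17 hair and nail keratins, and KRT42P. The 21 include KRT1 and KRT2, which mark the cornifying layers of skin, the gut keratin KRT20, the cornea keratin KRT12, the wound keratin KRT6C, KRT77 of the skin, and KRT25, KRT26, KRT27, KRT28, KRT33B, KRT34, KRT35, KRT36, KRT37, KRT38, KRT40, KRT72, KRT75, KRT82 and KRT84 of hair and its sheaths. The other 8 (KRT4, KRT6B, KRT24, KRT32, KRT71, KRT74, KRT76 and KRT222) were above background on 1 or 2 arrays and could not be tested. A name that passed in a mimic group alone had to be higher there, so counts over the tested names describe those names and not the family.

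**Figure D1:**
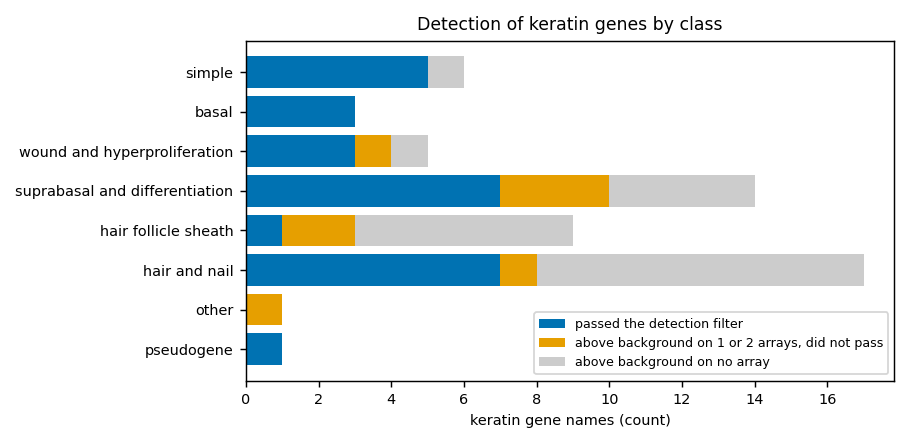
Number of keratin gene names in each class (x axis) by detection: names that passed the condition for a test, names above background on 1 or 2 arrays that did not pass, and names above background on no array. All 3 basal names passed, against 1 of 9 hair follicle sheath names.

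Across the 4 groups, 13 of the 27 tested keratins differed at an adjusted p under 0.05 in the F test of limma, against 25.2% of all 21283 gene names tested. They were the basal keratins KRT5, KRT14 and KRT15, the wound keratin KRT17, the simple keratins KRT8, KRT18, KRT19 and KRT23, the differentiation keratins KRT9 and KRT80, the hair keratins KRT81 and KRT86, and KRT42P. The widest spans between group means were those of KRT42P (1.83 on the log2 scale), KRT14 (1.72), KRT17 (1.62) and KRT86 (1.41). KRT14, KRT17 and KRT42P were highest with miR-874-3p and lowest with miR-210-3p, whereas KRT80, KRT81 and KRT86 were highest with miR-629-3p and lowest with miR-874-3p. Fewer keratins were called without an array of miR-629-3p, miR-210-3p or NC, or without miR-874-3p replicate 1. The share of all names called in such fits is not given here.

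**Figure D2:**
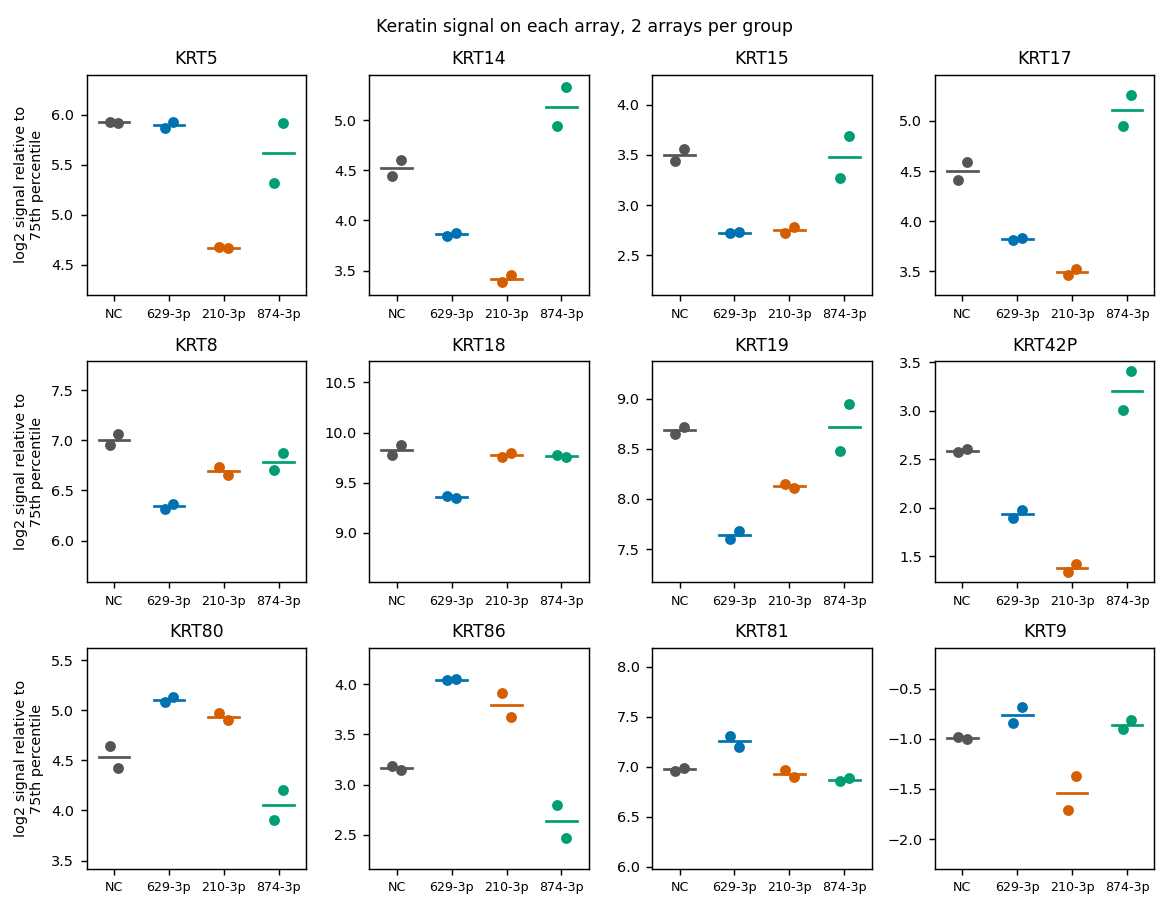
Level of 12 of the 13 keratins that differed across the groups (KRT23 is left out), as log2 signal over the array's 75th percentile (y axis), on each of the 2 arrays (points) of NC and the 3 mimics, with the group mean as a line. The panels have separate axes, and the miR-210-3p arrays lie lowest for KRT5, KRT14, KRT17, KRT42P and KRT9.

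With miR-629-3p, 3 of 5 tested simple keratins and 2 of 3 basal keratins fell, and 2 keratins of other classes rose. Against NC, 7 keratins were lower at an adjusted p under 0.05 (KRT8, KRT14, KRT15, KRT17, KRT18, KRT19 and KRT42P), where 7.47% of all names were lower, and 2 were higher (KRT80 and KRT86), where 9.28% of all names were higher. Only KRT19 also passed an unadjusted p under 0.05 with a 2-fold change, the threshold of the study, which 5.26% of all names passed. The median difference over the 27 keratins was -0.27 on the log2 scale, with 18 of them lower, against 0.02 over all names. Without adjustment 14 of the 27 passed 0.05, but the share of all names that did so is not given here. The calls changed with the arrays that were left out of the fit. They were lost without either miR-629-3p array or without NC replicate 2. They were fewer without NC replicate 1 or a miR-210-3p array, and more without a miR-874-3p array. The share of all names called in such fits, which leave a single array in a group, is not given here.

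KRT19, the small type I keratin of simple and basal epithelial cells, stood at 7.60 and 7.68 with miR-629-3p and at 8.65 and 8.71 with NC. The miR-629-3p arrays were the lowest of the 8, followed by those with miR-210-3p (8.15 and 8.11), while those with miR-874-3p (8.48 and 8.95) lay on either side of NC. The difference of miR-629-3p from NC was -1.05 ± 0.16 (SE, n = 2 arrays a group), a 2.06-fold reduction with an adjusted p of 0.014 from limma. With miR-210-3p it was -0.56 ± 0.16 and missed the threshold (adjusted p = 0.096).

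KRT8 and KRT18 form the filament pair of simple epithelia. KRT18 read 9.36 and 9.35 with miR-629-3p, against 9.78 and 9.87 with NC. The miR-210-3p arrays read 9.76 and 9.80 and the miR-874-3p arrays 9.78 and 9.75. Only the miR-629-3p arrays stood apart, with no overlap with any other group. The difference from NC was -0.47 ± 0.07 (adjusted p = 0.014), and the other KRT18 probe gave -0.54 ± 0.08 (adjusted p = 0.015). KRT8 read 6.31 and 6.37 with miR-629-3p and 6.95 and 7.06 with NC, a difference of -0.67 ± 0.09 (adjusted p = 0.012). Its levels on the miR-210-3p arrays (6.74 and 6.65) and the miR-874-3p arrays (6.70 and 6.87) lay between those of miR-629-3p and NC. A further KRT8 probe fell by 0.70 on the log2 scale with miR-629-3p (adjusted p = 0.0071), whereas the probe that the array assigns to a non-coding KRT8 transcript differed by -0.14 ± 0.08 (adjusted p = 0.26). KRT7, the usual type II partner in ductal epithelia, differed from NC by -0.21 ± 0.07 for miR-629-3p, -0.26 ± 0.07 for miR-210-3p and -0.17 ± 0.07 for miR-874-3p, and none of these passed adjustment (adjusted p = 0.088, 0.079 and 0.30).

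KRT15, a type I keratin of basal cells, read 2.72 and 2.73 after miR-629-3p and 2.72 and 2.78 after miR-210-3p, against 3.44 and 3.56 with NC. Both mimics lay below both NC arrays, by -0.78 ± 0.14 (adjusted p = 0.023) and -0.75 ± 0.14 (adjusted p = 0.045). The arrays with miR-874-3p read 3.27 and 3.69, one on each side of NC.

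KRT80 and KRT86 were the keratins called higher with miR-629-3p. KRT80, a type II keratin found in many differentiating epithelia, read 5.08 and 5.13 for miR-629-3p, 4.97 and 4.90 for miR-210-3p, 3.91 and 4.20 for miR-874-3p and 4.64 and 4.43 for NC, so the groups did not overlap. The difference of miR-629-3p from NC was 0.57 ± 0.13 (adjusted p = 0.035), that of miR-210-3p 0.41 ± 0.13 (adjusted p = 0.12) and that of miR-874-3p -0.48 ± 0.13 (adjusted p = 0.17). KRT86, a type II hair keratin, read 4.04 and 4.05, 3.92 and 3.68, 2.80 and 2.47 and 3.19 and 3.14 in the same order of groups. It was also highest on the miR-629-3p arrays and lowest on the miR-874-3p arrays. The differences from NC were 0.88 ± 0.14 (adjusted p = 0.015), 0.63 ± 0.14 (adjusted p = 0.057) and -0.53 ± 0.14 (adjusted p = 0.16). KRT81, its close relative, read 7.31 and 7.20 after miR-629-3p and 6.95 and 6.99 with NC, 0.28 ± 0.07 apart, and missed the threshold (adjusted p = 0.054).

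Among the tested keratins without a call for miR-629-3p, KRT6A, a wound keratin, read -1.02 and -1.24 against -0.57 and -0.16 with NC (-0.76 ± 0.22, adjusted p = 0.070). KRT79, of sebaceous ducts, was above background on both miR-629-3p arrays and on neither NC array, and was at least 1.04-fold higher (adjusted p = 0.068 in the fit). It was also above background on both miR-210-3p arrays and on neither miR-874-3p array, so its detection split by slide row. A bound of this size leaves the change of KRT79 all but unmeasured. KRT5 read 5.87 and 5.92, next to 5.93 and 5.92 with NC.

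**Figure D3:**
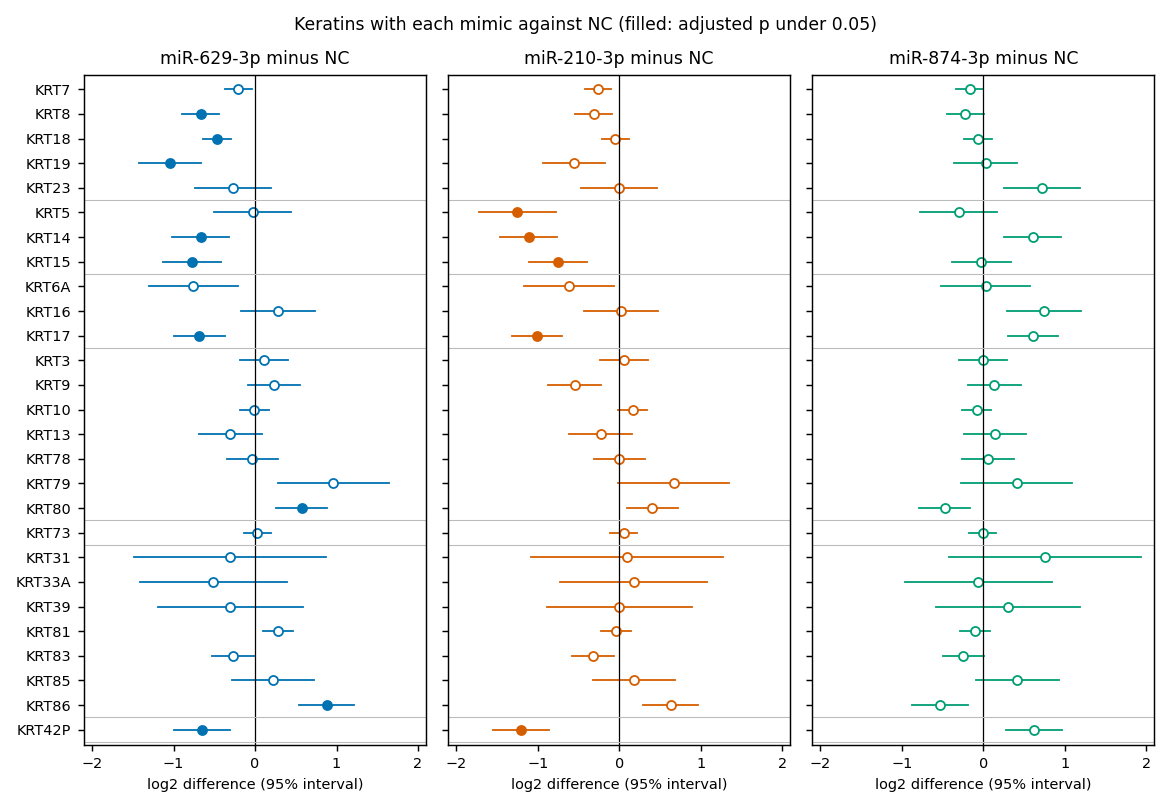
Difference from NC (x axis, log2, with its 95% interval from limma) for the 27 tested keratins (rows, grouped by class and ending with KRT42P) with each mimic. Filled points passed an adjusted p under 0.05: 9 for miR-629-3p, 5 for miR-210-3p and none for miR-874-3p.

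With miR-210-3p all 3 tested basal keratins and KRT17 fell. All 3 basal names (KRT5, KRT14 and KRT15), KRT17 and KRT42P were lower than with NC at an adjusted p under 0.05, where 2.20% of all names were lower, and 0 keratins were higher, where 3.85% of all names were. At an unadjusted p under 0.05, 13 of the 27 passed in either direction, but the share of all names that did so is not given here. KRT5, KRT14, KRT17 and KRT42P were also at least 2-fold lower, a threshold that 3.14% of all names passed in either direction. The median over the 27 keratins was -0.04, against 0.05 over all names. The calls were lost without either NC array or either miR-210-3p array. They were fewer without a miR-629-3p array and more without a miR-874-3p array. The share of all names called in such fits is not given here.

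KRT5, the type II keratin of the basal layer, read 4.67 on both miR-210-3p arrays. On the other arrays it read 5.93 and 5.92 for NC, 5.87 and 5.92 for miR-629-3p and 5.32 and 5.92 for miR-874-3p, so the miR-210-3p arrays lay below all others. Against NC the difference was -1.25 ± 0.19, with a 95% interval of -1.72 to -0.78 and an adjusted p of 0.027, a 2.38-fold reduction.

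KRT14, the type I partner of KRT5, read 3.38 and 3.46 for miR-210-3p, 3.85 and 3.88 for miR-629-3p, 4.94 and 5.33 for miR-874-3p and 4.45 and 4.61 for NC. The 4 groups did not overlap. Against NC, KRT14 was lower by -1.11 ± 0.14 with miR-210-3p (adjusted p = 0.018) and by -0.66 ± 0.14 with miR-629-3p (adjusted p = 0.032). The other KRT14 probe read -2.20 and -2.06 after miR-210-3p, against -0.58 and -0.57 with NC, a difference of -1.56 ± 0.21 (adjusted p = 0.023), and differed by -0.45 ± 0.21 with miR-629-3p (adjusted p = 0.21).

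KRT17, a type I keratin induced in wounds and common in squamous carcinoma, read 3.46 and 3.52 for miR-210-3p, 3.81 and 3.83 for miR-629-3p, 4.95 and 5.26 for miR-874-3p and 4.41 and 4.59 for NC. It had the order of groups of KRT14, again with no overlap. The difference from NC was -1.01 ± 0.12 with miR-210-3p (adjusted p = 0.017) and -0.68 ± 0.12 with miR-629-3p (adjusted p = 0.021). KRT16, the related wound keratin, was above background on neither NC array and differed from NC by 0.02 ± 0.18 with miR-210-3p in the fit.

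The summed level of the 12 epithelial and squamous marker genes was also lowest on the miR-210-3p arrays, at 9.74 and 9.75 against 10.20 on both NC arrays, 10.24 and 10.26 (miR-629-3p) and 10.04 and 10.37 (miR-874-3p). Of these markers 3 passed the test as lower, KRT5 and KRT14 themselves and SFN. The 2 tested fibroblast markers read higher than with NC: PDGFRB rose by 0.50 ± 0.08 (adjusted p = 0.032), and by 0.47 ± 0.08 with miR-629-3p (adjusted p = 0.019), and COL1A1, above background on neither NC array, read -1.63 and 0.53 with miR-210-3p and was at least 4.87-fold higher (adjusted p = 0.061). The summed level of the 2 was -0.31 and 0.92 with miR-210-3p and between -1.25 and -0.83 on the other arrays. The part of these shifts in the fall of the basal keratins was not tested, and in RNA from whole cultures fewer cells of a kind and less RNA per cell cannot be told apart.

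Other keratins with miR-210-3p lay near NC or missed the threshold. KRT9, a keratin of palm and sole skin, read -1.71 and -1.37 against a mean of -0.99 ± 0.011 (SD, n = 2) with NC (-0.55 ± 0.13, adjusted p = 0.068). KRT6A read -1.07 and -0.90 against -0.57 and -0.16 (-0.62 ± 0.22, adjusted p = 0.16). KRT10, a keratin of the suprabasal layers, read 5.87 and 5.75, just above the 5.64 and 5.65 of NC (0.17 ± 0.07, adjusted p = 0.22).

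With miR-874-3p no keratin passed adjustment in either direction, where 0.216% of all names were higher and 0.207% lower, and none was both under an unadjusted p of 0.05 and 2-fold changed, which 2.02% of all names were. By limma without adjustment 8 of the 27 passed 0.05: KRT14, KRT16, KRT17, KRT23 and KRT42P read higher and KRT7, KRT80 and KRT86 lower. The share of all names that passed 0.05 in this way is not given here. KRT14 and KRT17 stood above both NC arrays on both miR-874-3p arrays, by 0.61 ± 0.14 (adjusted p = 0.14) and 0.60 ± 0.12 (adjusted p = 0.12), 1.52-fold each. They were called higher with normexp background correction, and with a variance trend they were called along with KRT42P. KRT16 read -2.05 and -2.12 with miR-874-3p, was above background on neither NC array, and was at least 1.59-fold higher (adjusted p = 0.15). KRT23, a type I keratin of ductal and glandular cells, read -1.43 and -1.82 against -2.47 and -2.21 (0.72 ± 0.19, adjusted p = 0.16). The 2 arrays of miR-874-3p were farther apart than those of other groups for keratins, with a median gap of 0.29 (log2) over the 27, against 0.13 for NC, 0.08 for miR-629-3p and 0.09 for miR-210-3p. Leaving out either miR-874-3p array changed which keratins were called, with the remaining array assumed to vary like the other groups.

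The direct comparison of miR-629-3p with miR-210-3p, within 1 slide row, gave calls for 2 of 5 simple keratins, 1 of 3 basal keratins and 3 other names. KRT8 and KRT18 read lower after miR-629-3p than after miR-210-3p at an adjusted p under 0.05, where 12.7% of all names were lower, and KRT5, KRT9, KRT81 and KRT42P were higher, where 9.83% were. The 6 calls of 27 lie near the share over all names. KRT5 alone passed the 2-fold threshold, which 5.61% of all names passed. Without adjustment 9 of the 27 passed 0.05, and the share of all names at that threshold is not given here. KRT5 was 2.33-fold higher with miR-629-3p (1.22 ± 0.19, adjusted p = 0.012), KRT9 1.72-fold (0.78 ± 0.13, adjusted p = 0.014) and KRT81, a hair keratin, 1.25-fold (0.32 ± 0.07, adjusted p = 0.031). KRT18 was 1.34-fold lower (-0.42 ± 0.07, adjusted p = 0.013) and KRT8 1.28-fold lower (-0.35 ± 0.09, adjusted p = 0.044). KRT14 and KRT17 differed by 0.44 ± 0.14 and 0.33 ± 0.12 and KRT19 by -0.49 ± 0.16, and all 3 missed the threshold (adjusted p = 0.075, 0.11 and 0.075). The KRT15 arrays of both mimics overlapped (-0.03 ± 0.14, 95% interval -0.38 to 0.33). The keratin calls were lost without either miR-629-3p array or without miR-210-3p replicate 1. They were fewer without miR-210-3p replicate 2 or an NC array, and more without a miR-874-3p array. The share of all names called in such fits is not given here.

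Several tested keratins moved little in any group. KRT73, a keratin of the inner root sheath, lay between 2.64 and 2.74 on all 8 arrays. Its differences from NC were 0.03 ± 0.07 (miR-629-3p), 0.06 ± 0.07 (miR-210-3p) and -0.01 ± 0.07 (miR-874-3p), with all interval ends within 0.22 of 0. KRT3, a keratin of the cornea, lay between -0.81 and -0.48 and KRT78 between -0.71 and -0.42. KRT13, the keratin of the suprabasal layers of the mouth, was dim, at -2.83 to -2.15, and its differences from NC of -0.30, -0.23 and 0.14 had standard errors of 0.16. The hair keratins KRT31, KRT33A and KRT39 were each above background on some arrays of several groups, and their replicates differed by up to 1.14 on the log2 scale, so the arrays do not place them. KRT85, a further hair keratin, read -1.63 and -1.08 with NC and differed from it by 0.22 ± 0.20, 0.18 ± 0.20 and 0.42 ± 0.20 in the same order of mimics (adjusted p = 0.50, 0.62 and 0.38).

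Since keratin genes resemble each other, the probes were read beside the values. Of 2211 pairs among the 67 keratin probes, 3 shared at least 25 bases over a stretch of at least 70% identity: KRT14 with KRT16, KRT33A with KRT33B and KRT6C with KRT75. The first pair is shown for its likeness, and the main probes of KRT17 and KRT42P because these names had the order of groups of KRT14, with the bases that the KRT14 and KRT16 probes share in capitals.
KRT14, chr17:39740013-39740072 (hg19, minus strand): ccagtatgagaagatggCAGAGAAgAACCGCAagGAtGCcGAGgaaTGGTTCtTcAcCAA
KRT16, chr17:39767216-39767364 (hg19, minus strand, across a splice junction): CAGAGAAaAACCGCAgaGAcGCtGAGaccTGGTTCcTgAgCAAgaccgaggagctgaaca
KRT17, chr17:39776976-39777035 (hg19, minus strand): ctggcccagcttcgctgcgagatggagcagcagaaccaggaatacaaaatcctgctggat
KRT42P, chr17:39786678-39786737 (hg19, minus strand): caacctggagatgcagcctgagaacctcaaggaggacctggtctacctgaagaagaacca
KRT14 and KRT16 matched at 32 of 43 aligned bases (74.4%). The KRT17 and KRT42P probes did not reach this likeness with the KRT14 probe or with each other. The KRT14 probe at chr17:39742569-39742628 lies elsewhere in the gene and had the same order of groups: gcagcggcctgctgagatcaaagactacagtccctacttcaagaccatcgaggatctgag. Transcript sequences were not used here, so binding of a probe to the transcript of another keratin was not tested.

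The brightest KRT42P probe read 1.89 and 1.98 for miR-629-3p, 1.34 and 1.42 for miR-210-3p, 3.01 and 3.41 for miR-874-3p and 2.57 and 2.60 for NC, which is the order of KRT14 and KRT17. It was lower with miR-210-3p (-1.21 ± 0.14, adjusted p = 0.015) and miR-629-3p (-0.65 ± 0.14, adjusted p = 0.032). The other KRT42P probe above background read 1.60 and 1.56, 2.19 and 2.19, 2.25 and 1.76 and 1.79 and 2.14 in the same order of groups. It did not have that pattern, with -0.39 ± 0.19 for miR-629-3p and 0.22 ± 0.19 for miR-210-3p (adjusted p = 0.22 and 0.52).

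The probes named KRT83, a type II hair keratin, gave different answers. The array's annotation lists the brighter also for KRT81, KRT85 and KRT86 and the dimmer also for KRT86, and the sequence of the dimmer is shown for that reason.
KRT83, dimmer probe, chr12:52710677-52710736 (hg19, minus strand): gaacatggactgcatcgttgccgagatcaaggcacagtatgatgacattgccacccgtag
The brighter probe lay between 3.77 and 4.20 on all arrays and differed from NC by -0.27 ± 0.10 (miR-629-3p), -0.32 ± 0.10 (miR-210-3p) and -0.24 ± 0.10 (miR-874-3p) (adjusted p = 0.14, 0.12 and 0.32). The dimmer probe read -0.40 and -0.42 for miR-629-3p, -1.28 and -1.05 for miR-210-3p, -1.83 and -2.62 for miR-874-3p and -1.51 and -1.75 for NC. Its order of groups was that of the KRT86 probe at chr12:52702840-52702897 (hg19, plus strand), with 1.22 ± 0.26 for miR-629-3p against NC (adjusted p = 0.035). Which of these genes gave the signal of either probe cannot be told apart.

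The KRT23 probes also parted. The brighter read -2.45 and -2.77 with miR-629-3p and -2.47 and -2.21 with NC (-0.27 ± 0.19, adjusted p = 0.36). The other was above background only on the miR-629-3p arrays, at -1.68 and -2.77. It was at least 1.52-fold higher than with NC and at least 2.25-fold higher than with miR-210-3p. This probe entered the fit only through the miR-629-3p arrays, where it had to be higher, so no p-value is given. Of the 9 names with several probes, 6 had more than 1 probe that passed. For KRT14, KRT18 and KRT8 the probes to coding transcripts had the same sign with miR-629-3p and miR-210-3p, and for KRT23, KRT42P and KRT83 the probes had opposite signs in at least 1 of these comparisons.

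**Figure D4:**
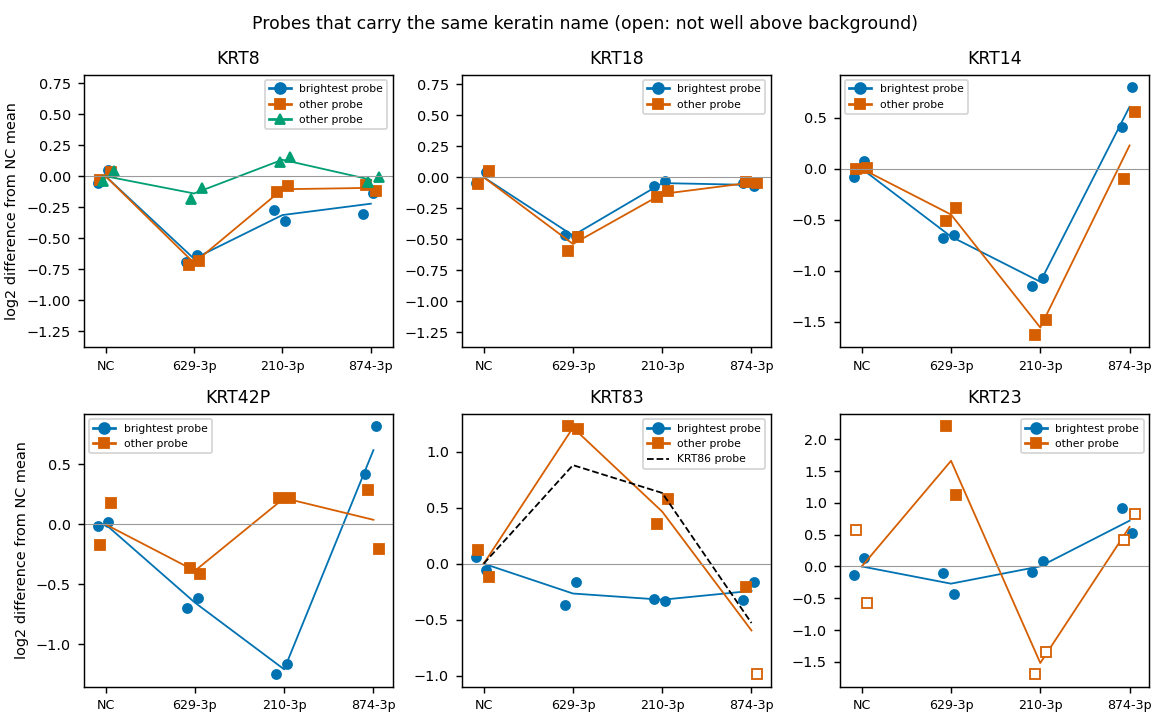
Difference of each array from the NC mean of the same probe (y axis, log2) for the names with more than 1 probe that passed, by group (x axis). Points are arrays, lines join group means and open points were not well above background. The probes of KRT18 and KRT14 ran alike, while those of KRT42P, KRT83 and KRT23 did not, and the dimmer KRT83 probe followed the KRT86 probe (dashed line).

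Genes that hold or steer the keratin filaments were read from hand-written lists, to be read against the shares of all names called given above (9.28% higher and 7.47% lower for miR-629-3p, 3.85% and 2.20% for miR-210-3p). Among 15 tested linkers and anchors of filaments, 2 were higher and 2 lower with miR-629-3p, 1 higher and 1 lower with miR-210-3p and 0 changed with miR-874-3p, where by limma 0.216% and 0.207% of all names did. FLG, which bundles keratin in the cornified layer, read -2.45 and -2.02 with miR-210-3p against -1.22 and -0.95 with NC, and fell by 1.15 on the log2 scale (adjusted p = 0.038). MACF1, a linker of actin and microtubules, rose with miR-210-3p by 0.74 ± 0.07 (adjusted p = 0.0096). PKP1 and EPPK1, of desmosomes and filament bundles, fell with miR-629-3p by 0.83 and 0.80 on the log2 scale (adjusted p = 0.048 and 0.0087).

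Among 20 genes of filament organisation, chaperones and turnover, 2 were higher and 4 lower with miR-629-3p, 2 higher and 1 lower with miR-210-3p and 0 changed with miR-874-3p. PRKCE, a kinase known to phosphorylate simple keratins, read 2.85 and 2.98 after miR-629-3p and 2.70 and 2.59 after miR-210-3p, against 1.18 and 1.00 with NC. It was 3.55-fold and 2.94-fold higher (adjusted p = 0.0014 and 0.0057). SFN, the 14-3-3 sigma protein that binds keratin in squamous cells, was 1.95-fold lower with miR-210-3p (adjusted p = 0.013). TGM2, a crosslinking enzyme, was 1.71-fold higher with miR-210-3p (adjusted p = 0.039).

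Among 13 tested intermediate filament genes other than keratins, 3 were higher and 1 lower with miR-629-3p, 0 changed with miR-210-3p and 1 was higher with miR-874-3p. NEFL, a filament of neurons, BFSP1, of the lens, and IFFO1 were 2.95-fold, 2.20-fold and 2.65-fold higher with miR-629-3p (adjusted p = 0.013, 0.0060 and 0.0033). GFAP, the filament of astrocytes, read -1.88 and -1.34 with miR-874-3p and was above background on none of the other 6 arrays. It was at least 2.33-fold higher than with NC. GFAP entered the test only through the miR-874-3p arrays, where it had to be higher, so its call there is no support. The lower call with miR-629-3p was GFAP too, where it was below background in both groups and no fold can be given.

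Among 30 tested transcription factors of epithelia, 7 were higher and 1 lower with miR-629-3p, 2 higher and 2 lower with miR-210-3p and 0 changed with miR-874-3p. PRDM1, ZNF750 and GRHL3, regulators of epidermal differentiation, were 3.13-fold, 2.60-fold and 2.49-fold higher with miR-629-3p (adjusted p = 0.0069, 0.046 and 0.033). NOTCH3, a receptor that takes part in squamous differentiation, was 2.19-fold lower with miR-629-3p and 2.59-fold lower with miR-210-3p (adjusted p = 0.017 and 0.020). The list medians against NC for miR-629-3p were 0.01 for the transcription factors, -0.05 for linkers and anchors, -0.19 for organisation and turnover and -0.09 for other filaments, beside -0.27 for the keratins and 0.02 for all names.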

How the data were processed

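RNA of 8 samples (100 ng each) was measured on 1-colour Agilent SurePrint G3 Human GE v3 arrays. The intensity values deposited by the authors are the spot signals of Agilent Feature Extraction 11.5.1.1, background-subtracted and not normalized between arrays, with flags for outliers and for signal well above background. The log2 values deposited by the authors for the same arrays equalled these after an offset of -0.05 to 0.004 per array and were used as an alternative.

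Log2 signals were set to each array's 75th percentile over gene probes. Control spots and outlier spots (87 to 346 of 60901 per array) were left out, and no spot was saturated. Probes entered with a value on all 8 arrays if both arrays of some group were well above background, and a name was represented by its brightest probe (21283 names). 1 model of the 4 groups with no covariates was fitted in limma 3.58.1 (R 4.3.3; lmFit, eBayes; residual df 4, prior df 1.68), and p-values were adjusted by Benjamini-Hochberg over all names. Values after ± are standard errors of a difference. The 3 comparisons with NC share the NC arrays. Where no array of a group was well above background, a fold is a bound ("at least"), with each dim array set to its own value or to its dimmest detected signal, whichever is higher. The number of arrays limits the precision.

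All keratins that passed were named. Values were given for all but KRT31, KRT33A and KRT39, for which only the largest replicate gap was given. Other probes of a name were read from a fit with every probe. Up to 4 genes per partner list were named, by size of change among those called against NC. A listed gene and a probe sequence are not reported here. The members and lists were chosen with earlier results of these data known. Probe coordinates are the array's own (hg19). The fit was tested on simulated data. Alternatives were quantile normalization, normexp background correction (offset 50), median centring, the deposited values, outlier spots kept, a floor, no filter and a stricter filter, every probe counted, only the groups compared, a variance trend, a replicate block, the methods' t-test and ANOVA, and each array left out.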

Additional observations from a re-analysis of the deposited data

Results flagged for a closer look

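Of 160 probes named KRT-something that entered no comparison of the report, those outside the rule included, 5 had signal well above background with a mimic on both its arrays and on neither NC array, with both values above the dimmest signal detected with NC. All are keratin-associated proteins, the matrix proteins of the hair shaft. With miR-629-3p, KRTAP3-2 had a mean level of -1.01 (arrays at -2.20 and 0.19, against -4.90 and -4.85 with NC) and KRTAP1-5 of -1.76 (-1.87 and -1.65, against -3.14 and -3.91). KRTAP4-9 had a mean of -2.56 (-2.38 and -2.74, against -5.15 and -5.13) and KRTAP21-1 of -2.71 (-2.75 and -2.67, against -3.77 and -2.97). With miR-874-3p, KRTAP9-1 had a mean of -2.63 (-2.79 and -2.47, against -3.03 and -3.31). The arrays with miR-629-3p had more probes above background (28994 and 28113) than those with NC (24692 and 24338), and the part of this in the 4 probes was not tested. The share of all array probes that met the same condition is not given here, so the 5 of 160 cannot be read as a trait of these probes.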

How the results depend on the processing

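Of the calls of single keratins, 20 gene and comparison pairs with up to 20 alternatives each, 258 of 400 kept their call, 142 lost it and none changed sign, and 56 calls were gained. Apart from leaving out arrays, 197 of 240 were kept. The count for miR-210-3p against NC was 9 with normexp background correction (1 higher, 8 lower), 10 with a variance trend, 2 with only the groups compared (KRT5 and KRT42P), and 0 with no filter and with the methods' t-test. For miR-629-3p against NC it was 19 with no filter, where keratin probes above background on no array entered, and 0 with the methods' t-test. For miR-874-3p against NC it was 2 with normexp and 3 with a trend. For miR-629-3p against miR-210-3p it was 2 with no filter, 10 with every probe counted and 2 with the methods' t-test, and the split was 4 higher and 1 lower with quantile normalization and with the deposited values. The cause was not tested for the others. Leaving out single arrays gave 3 to 13 keratins across the groups, 0 to 11 for miR-629-3p, 0 to 7 for miR-210-3p, 0 to 1 for miR-874-3p and 0 to 9 for miR-629-3p against miR-210-3p. The replicate numbers did not pair the samples (correlations of -0.11 to 0.03 over 6 pairs of groups), and with the number as a block 3 keratins were called for miR-210-3p (KRT14, KRT17 and KRT42P), where KRT5 and KRT15 had adjusted p-values of 0.052 and 0.065. With that block 10 keratins differed across the groups, 8 for miR-629-3p, 0 for miR-874-3p and 4 for miR-629-3p against miR-210-3p. Signals near background limit KRT16, KRT31, KRT33A, KRT39 and KRT79.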

Other observations

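KRT24, a type I keratin, was singled out after its values were seen. It was above background only on the miR-874-3p arrays, at -2.92 and -0.58, and read -4.45 on NC replicate 1, -4.88 and -3.94 with miR-629-3p and -5.47 and -4.84 with miR-210-3p. The spot on NC replicate 2 carried an outlier flag, so KRT24 entered no test.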
